A study of Rattus norvegicus with 4 samples.

Results

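The genes described here build the contacts between skin cells and between those cells and the matrix below them: desmosomes, hemidesmosomes, tight junctions, gap junctions, adherens junctions and integrins. They were taken by symbol, as every row whose name begins with or equals a desmoglein, desmocollin, plakophilin, desmoplakin, plakoglobin, periplakin, envoplakin, plectin, Perp, claudin, occludin, zonula occludens, connexin, numbered cadherin, catenin or integrin symbol. Cdh5, the endothelial cadherin, was left out by that rule. This gave 72 of the 18957 genes in the files. By junction type there were 11 genes of the desmosome and envelope plaque, 3 of the hemidesmosome, 14 of the tight junction, 9 connexins, 12 cadherins and catenins, and 15 other integrin subunits. A further 8 matched by name alone and encode neither a junction component nor an integrin subunit.

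The study followed radiation dermatitis in the footpad skin of the hindlimb of Sprague Dawley rats, collected on days 0, 3, 6 and 9. By the protocol in the labels, the feet were irradiated 4 times with 10 Gy, on days 1, 2, 4 and 5, with electrons of 9 MeV delivered at 500 cGy/min. Day 0 skin therefore preceded the first irradiation, day 3 skin followed the irradiations of days 1 and 2, and the skin of days 6 and 9 followed all 4. Titles gave the day of each sample. The descriptions of the samples do not match this in full, since that of the day 0 sample names day 1 and the later ones name single irradiation days. Age, sex and the number of animals in a library are not given in the labels, and each day had 1 library. No difference below was therefore tested against the spread between animals. Each fold is printed with an exact 95% Clopper-Pearson interval in brackets, which covers counting error only. The reads carried no molecular identifiers, so amplified copies could not be told from separate molecules, and the intervals may be too narrow even for that error.

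A desmosome joins neighbouring keratinocytes: the desmosomal cadherins (desmogleins and desmocollins) bind across the gap, plakoglobin and plakophilins line their tails, and desmoplakin ties that plaque to the keratin filaments. The hemidesmosome does the same towards the basement membrane, with the integrin α6β4 as the receptor for laminin and plectin as its tie to keratin. Claudins and occludin seal the space between cells of the granular layer, classical cadherins with their catenins join neighbouring cells to actin, and connexins form channels that pass ions and small molecules between cells. Integrins are pairs of one alpha and one beta subunit, so the level of one subunit alone does not give the amount of receptor.

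Expression was counted from 21-base tags that begin at a CATG site, so a gene's count is the number of its tags and was not scaled by transcript length. The assay reads tags and not whole transcripts, so counts of different genes are set side by side below as tag counts alone. The libraries held between 3360368 and 3592019 tags and between 1952921 and 1982608 gene counts. Genes were called by size: a gene had to differ by 2-fold or more after scaling, to have 50 or more counts in whichever library was higher, and to have an interval clear of 1. The day 6 library stood apart in its makeup. All 6 listed skeletal muscle markers were at 0 there, against summed counts of 4141, 9183 and 8030 on days 0, 3 and 9. The Y-linked gene Eif2s3y had 0 counts on day 0 against 118, 92 and 130 on days 3, 6 and 9. Animal and day cannot be told apart in any comparison below.

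Of the 72 genes, 60, 62, 56 and 61 were listed on days 0, 3, 6 and 9, and 48 on all 4 days. At least 50 counts in a library were reached by 34 of them. The other 38 had at most 44 counts in any library, and 20 of those never had more than 10. These sparse genes were 4 of the desmosome, with at most 19 counts, 8 of the tight junction (27), 6 connexins (32), 6 cadherins (10), 11 integrin subunits (34) and 3 matched by name alone (44), the highest count of each group in parentheses. Only the 34 could be called, and in at least 1 comparison 11 were: Jup, Dsg3, Plec, Cldn3, Gjb2, Gjb6, Cdh3, Cdh11, Itgb5, Itgb1bp1 and Cldnd1. Of all 5736 genes with 50 counts in a library, 38.5% were called in at least 1 comparison, so that 11 of 34 is no larger a share than that of other genes.

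On day 3 against day 0, 5 of the 33 junction and integrin genes with 50 counts were called, 1 higher and 4 lower, where 16.4% of all genes with 50 counts were called, 8.54% higher and 7.88% lower. With the deposited CPM plus 1 in place of scaled counts, the split of these calls was 2 higher and 3 lower. On day 6 against day 0, 6 of 32 were called, 2 higher and 4 lower, against a background of 20.6% of all genes, 7.48% higher and 13.1% lower. On day 9 against day 0, 8 of 33 were called, 5 higher and 3 lower, against a background of 21.1%, 10.7% higher and 10.4% lower. Their shares of 15.2, 18.8 and 24.2% lay near these backgrounds, so the set as a whole was called about as often as other genes. Its median log2 ratio to day 0 was -0.25, 0.06 and -0.09 on days 3, 6 and 9, beside -0.05, 0.03 and -0.01 over all genes. The 3 comparisons share the day 0 library, and a value that is unusual there moves all of them.

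Between consecutive later days the genes divided differently. On day 6 against day 3, 0 of 31 were called, where 9.63% of all genes were, 2.88% higher and 6.74% lower. Their median log2 ratio was 0.25 beside 0.05 over all genes, with 23 of the 31 above 1 as a ratio and 8 below. On day 9 against day 6, 5 of 32 were called, all higher on day 9, and 14.4% of all genes were called, 10.0% higher and 4.37% lower. Of the 34 genes with 50 counts, 9, 5, 9 and 11 had their highest scaled level on days 0, 3, 6 and 9. Their lowest level fell on day 0 for 8 genes, on day 3 for 11, on day 6 for 3 and on day 9 for 12. Of all 5736 genes with 50 counts, 1816, 1098, 1371 and 1451 were highest on days 0, 3, 6 and 9, and 1804, 1204, 1280 and 1448 were lowest.

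**Figure D1:**
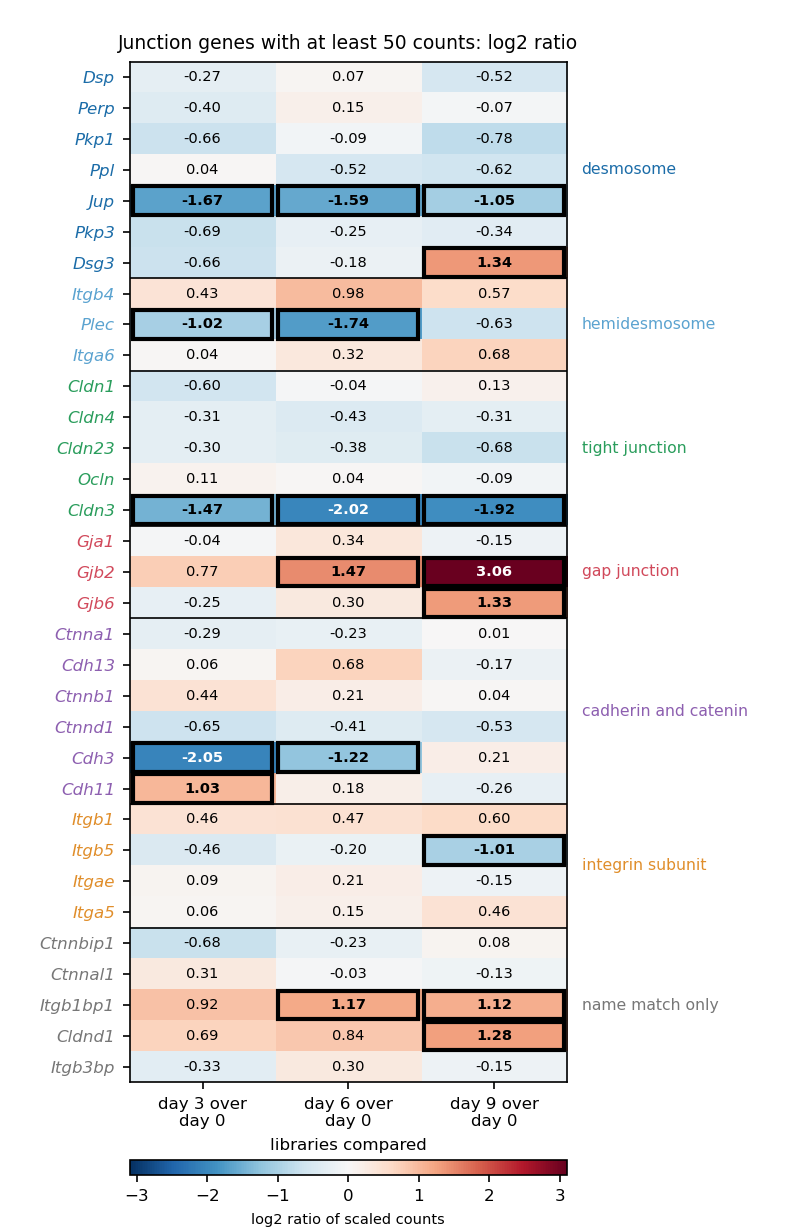
Log2 ratio of scaled counts to day 0 (colour) for 33 of the 34 junction and integrin genes with at least 50 counts in a library (rows, by junction type) on days 3, 6 and 9 (columns), with called values boxed. Gjb2 deepens in red at each step and reaches 3.06 on day 9, while Jup is -1.67, -1.59 and -1.05 on days 3, 6 and 9.

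The plaque of the desmosome supplied most of the counts. Dsp, which encodes desmoplakin, had 16992, 14117, 17372 and 11253 counts on days 0, 3, 6 and 9, the highest of any of the 72 genes on each day. It was lowest on day 9, at 1.44-fold [1.40 to 1.47] below day 0, and was not called on any day. Perp, which encodes a tetraspan membrane protein of desmosomes and is a target of p53 and p63 in mice, had 7160, 5449, 7723 and 6509 counts. Pkp1, a plakophilin of the plaque, had 6257, 3993, 5700 and 3480 counts, with day 9 at 1.71-fold [1.64 to 1.79] below day 0. These 3 genes held 86.2, 89.1, 92.5 and 88.5% of the desmosome counts on days 0, 3, 6 and 9. They shared a saw-tooth course: all 3 were lower on day 3 than on day 0 or day 6, and lower again on day 9 than on day 6. Suprabasal keratinocyte markers, 5 of 6 listed, took the same course, with summed counts of 35848, 28607, 49436 and 35721. Their part in the desmosome values was not tested.

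Jup, which encodes plakoglobin, took another course. It had 2473 counts on day 0 against 781, 800 and 1138 on days 3, 6 and 9, and day 0 was above each later day by more than 2-fold. The fold below day 0 was 3.18 [2.94 to 3.45] on day 3, 3.00 [2.77 to 3.26] on day 6 and 2.07 [1.93 to 2.22] on day 9, and Jup was called lower on all 3 days. Per Dsp count there were 0.0553, 0.0461 and 0.101 Jup counts on days 3, 6 and 9 and 0.146 on day 0. Plakoglobin differs from the other plaque proteins in that it also sits in adherens junctions. The tags that carry Jup and its partners are shown with the CATG site in capitals, 5′ to 3′, since all counts of these genes are counts of such tags:
Jup site 1: CATGggtttggggaggactga
Jup site 5: CATGctggcctagctggctcc
Dsp site 1: CATGtgctttaaaaaggtgtc
Perp site 1: CATGaccagcttccccaataa
Perp site 2: CATGgccgttgtcactactga
Perp site 5: CATGtgaggaggaaagtgttc
Sites are numbered from the 3′ end of the gene, as the file headers say. Each of these tags was assigned to 1 gene.

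The lower Jup level rested mostly on its site 1 tag. That tag had 2248, 691, 641 and 975 copies on days 0, 3, 6 and 9, which put day 6 at 3.4-fold [3.12 to 3.72] below day 0. The site 5 tag had 184, 73, 136 and 135 copies, and its fold below day 0 was 2.52 [1.92 to 3.37] on day 3 but 1.31 [1.05 to 1.65] on day 6 and 1.3 [1.03 to 1.63] on day 9. Both tags were thus lower on every later day, by more than 2-fold at both sites on day 3 alone. Perp showed a like split without being called: its site 2 tag had 239, 83, 73 and 102 copies, 3.17-fold [2.44 to 4.19] lower on day 6 than on day 0. Its site 1 tag had 3970, 3286, 4627 and 3160 copies, and its site 5 tag had 2657, 1901, 2814 and 2997. On day 9 against day 0 the site 1 tag of Perp was 1.20-fold [1.14 to 1.25] lower, while the site 5 tag was 1.18-fold [1.12 to 1.25] higher.

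Among the remaining plaque and cadherin genes, Ppl, an envelope plakin, had 1572, 1623, 1067 and 973 counts, and Pkp3 had 740, 460, 604 and 558. Neither was called. Dsg3, a desmoglein of the lower epidermal layers, had 27, 17, 23 and 66 counts. It was 2.54-fold [1.62 to 4.18] higher on day 9 than on day 0 and 2.89-fold [1.80 to 4.93] higher than on day 6, with days 0, 3 and 6 within 10 counts of each other. Its tag was CATGtcactcaaaatgtcact. The desmocollins were too sparse for a call. Dsc3, also of the lower layers, had 19, 0, 10 and 19 counts and Dsc2 had 2, 0, 0 and 13, both named after their values were seen.

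**Figure D2:**
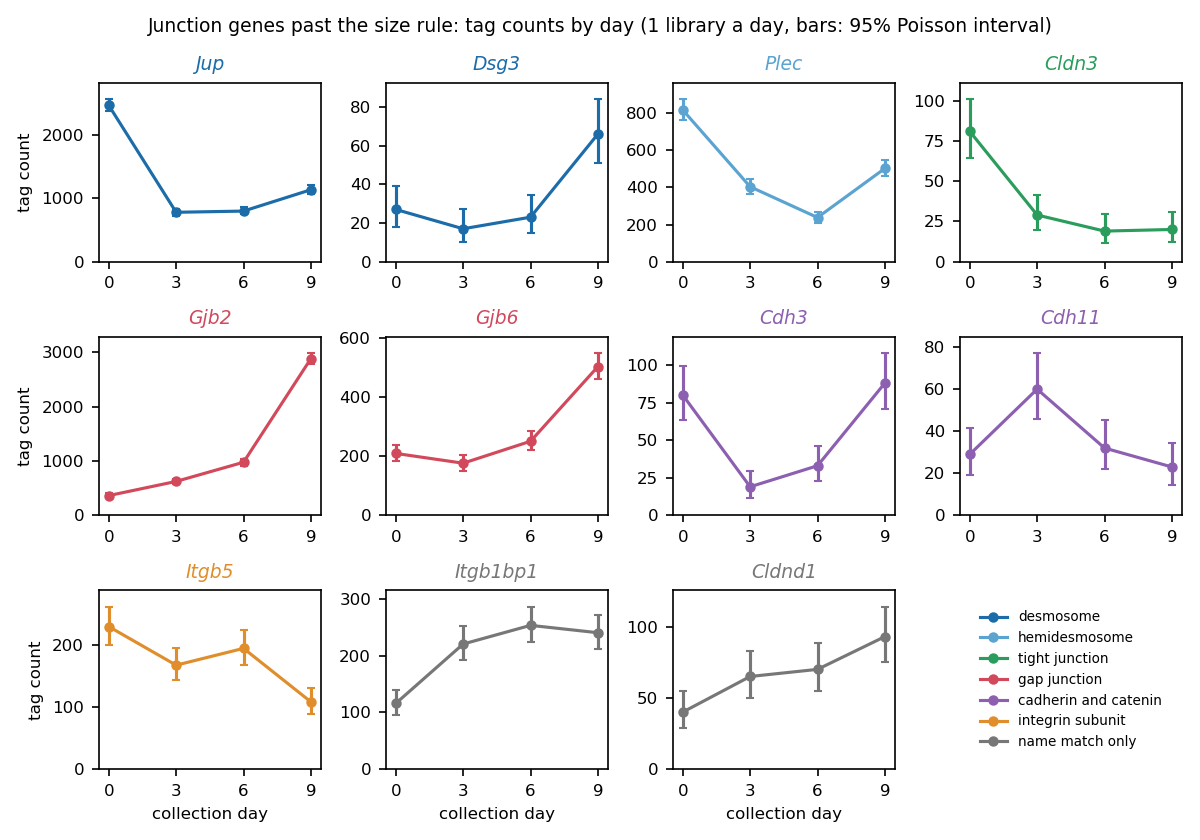
Tag counts (vertical axes from 0, a scale for each gene) on days 0, 3, 6 and 9 for the 11 called genes, 1 point for each library with its 95% Poisson interval for counting error. Cdh3, Plec and Jup dip after day 0 to different depths, Cldn3 stays low to day 9, and Gjb2 climbs at every step.

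The tag counts of the hemidesmosome receptor and of its keratin link took different courses. Plec, the plakin that links the integrin β4 tail to keratin filaments, had 818, 404, 238 and 503 counts on days 0, 3, 6 and 9. It was 2.03-fold [1.80 to 2.30] lower than day 0 on day 3 and 3.33-fold [2.89 to 3.87] lower on day 6. Day 9 stood 2.15-fold [1.84 to 2.52] above day 6, yet 1.55-fold [1.38 to 1.73] below day 0, which is short of a call. The day 3 call did not hold with the deposited CPM plus 1 or with totals that leave out the 20 most abundant genes, where the log2 ratios were -0.91 and -0.96. All cell types of the skin were counted together, so these counts do not place the Plec difference at the hemidesmosome. The part of cell content in the Plec result was not tested.

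The receptor subunits were not called in any comparison. Itgb4, the β4 subunit, had 838, 1133, 1611 and 1187 counts, and day 6 was 1.98-fold [1.82 to 2.15] above day 0, just under the size rule. Itga6, the α6 subunit, had 162, 168, 197 and 248 counts. Counts of Plec per Itgb4 count were 0.357, 0.148 and 0.424 on days 3, 6 and 9 and 0.976 on day 0. The tags show where on the transcripts this was read:
Plec site 1: CATGggcgggggccctgcggt
Plec site 4: CATGtcgccaggctccccgtg
Itgb4 site 1: CATGtaaccaaaaagctggag
Both Plec tags had fewer copies on each later day than on day 0. The site 1 tag had 675, 315, 193 and 442 copies and the site 4 tag 97, 54, 23 and 32, which on day 9 was 2.86-fold [1.92 to 4.45] below day 0 against 1.45-fold [1.29 to 1.64] for site 1.

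The base composition of tags moved with the day over all genes, and the Plec tags lie at its GC-rich end. Among the 113 compared tags with 13 to 17 G or C after the CATG, the median log2 ratio to day 0 was -0.15, -0.22 and -0.21 on days 3, 6 and 9. Among those with 0 to 4 it was 0.11, 0.20 and 0.16. The Plec site 1 tag has 15 such letters, Jup site 1 has 10 and Jup site 5 has 12, while the leading Gjb2 tag has 5. The log2 ratio to day 0 was -1.67 for Jup on day 3 and -1.74 for Plec on day 6. The part of base composition in the Jup and Plec results was not tested.

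Other basement membrane anchors, 10 of 14 of them listed, included 7 with 50 counts. None was called on day 3 or day 6 against day 0. Lamc1, a gamma chain shared by many laminins, had 75, 67, 53 and 112 counts and was 2.14-fold [1.54 to 3.05] higher on day 9 than on day 6. On day 9, 1 of the 7 was called higher than on day 0 and 2 higher than on day 6, with 0 lower. The shares called higher over all genes with 50 counts were 10.7% and 10.0%. The median log2 ratio of the 7 genes to day 0 was -0.14 on day 3, -0.25 on day 6 and 0.65 on day 9.

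Of the 14 tight junction genes, 6 had 50 counts, and 1 of these was called in at least 1 comparison. Over all genes with 50 counts that share was 38.5%. Cldn3, a sealing claudin, had 81 counts on day 0 against 29, 19 and 20 on days 3, 6 and 9, with the 3 later libraries far below day 0 and close to each other. Its fold below day 0 was 2.78 [1.82 to 4.45], 4.06 [2.49 to 7.23] and 3.79 [2.34 to 6.65] on these days. All its counts came from the tag CATGtggcgcgtttcggcatt. Cldn4, Cldn1 and Cldn23 were the most abundant claudins. Cldn1, which is required for the epidermal barrier in mice, had 198, 131, 187 and 206 counts, Cldn4 had 203, 165, 146 and 156, and Cldn23 had 91, 74, 68 and 54. The sums over the 14 genes were 787, 635, 636 and 653 counts on days 0, 3, 6 and 9. Ocln, which encodes occludin, had 58, 63, 58 and 52 counts.

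Cldn8, Cldn7 and Cldn11 were at 0 on day 6 and listed on every other day. Cldn8 had 16, 20 and 16 counts on days 0, 3 and 9, and day 6 was at least 5.18-fold lower than day 0 and at least 6.44-fold lower than day 3, with 3 counts as the floor of a library at 0 and the counts of the other library taken as they are. With their counting error the exact intervals begin at 3.75-fold and 4.77-fold. Cldn7 had 7, 8 and 7 counts and Cldn11 had 4, 5 and 13. The 3 were named after their values were seen and lie under 50 counts. Sweat gland and simple epithelium markers, of which 5 of 6 were listed, summed to 121 counts on day 6 against 471, 834 and 521 on days 0, 3 and 9, and Krt18 was at 0 on day 6. Whether fewer cells of a type or less RNA in each cell gave such values cannot be told apart in a bulk sample, and the part of gland content in these claudin values was not tested.

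The largest called ratio among the 72 genes was that of a connexin. Gjb2, which encodes a beta connexin expressed at low levels in resting epidermis and at higher levels in wounded or hyperproliferative epidermis, had 364, 625, 978 and 2886 counts on days 0, 3, 6 and 9. Each day exceeded the one before it. It was 1.71-fold [1.5 to 1.95] above day 0 on day 3, which is short of a call, then 2.76-fold [2.45 to 3.13] on day 6 and 8.31-fold [7.46 to 9.31] on day 9. Day 9 was 3.01-fold [2.80 to 3.24] above day 6. Gjb6, a beta connexin that can share a channel with the Gjb2 product, had 209, 176, 250 and 502 counts. It was 2.52-fold [2.14 to 2.98] above day 0 and 2.05-fold [1.76 to 2.39] above day 6 on day 9, while the first 3 days lay between 176 and 250 counts. The call against day 6 did not hold for its leading tag alone or with totals that leave out the 20 most abundant genes, where the log2 ratios were 0.93 and 0.99. Gja1, the main alpha connexin of epidermis and dermis, had 2128, 2085, 2614 and 1830 counts and was not called on any day.

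The connexin mix changed accordingly. Gja1 made up 78.0, 70.8, 67.0 and 34.7% of connexin counts on days 0, 3, 6 and 9, and Gjb2 made up 13.3, 21.2, 25.1 and 54.7%. Gjb6 held 7.66, 5.98, 6.41 and 9.51%. Gjb2 was thus the most counted connexin on day 9 alone, and Gja1 on the other 3 days. These are shares of tags and not of channels. The 9 connexins summed to 2728, 2943, 3903 and 5280 counts, which was 6.21, 8.47, 9.03 and 15.0% of the counts of all 72 genes. The desmosome share was 80.3, 76.1, 77.0 and 68.1%. Smaller connexins stayed under 50 counts. Of these Gja4, an endothelial connexin, had 14, 21, 32 and 20 counts, and was named after its values were seen.

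**Figure D3:**
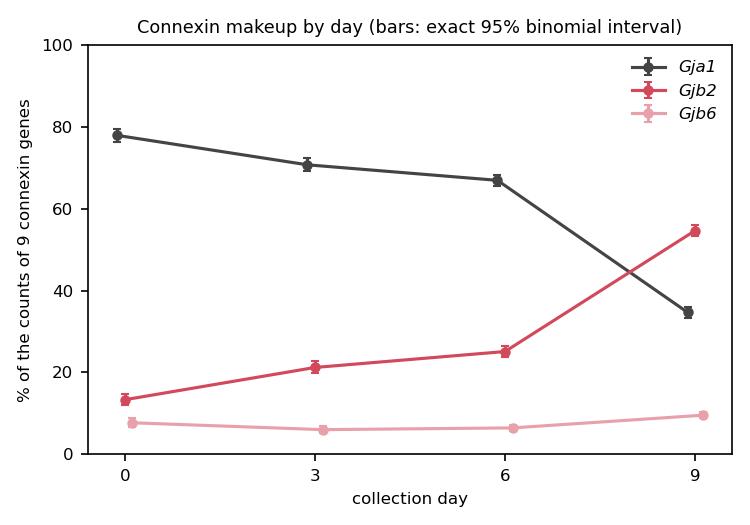
Share of connexin counts (percent, vertical axis) held by Gja1, Gjb2 and Gjb6, with exact 95% binomial intervals, in the libraries of days 0, 3, 6 and 9 (horizontal axis). The Gja1 share is 34.7% on day 9 and 78.0% on day 0, and the Gjb2 share is 54.7% on day 9 and 13.3% on day 0.

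Markers of activated keratinocytes were highest on day 9, as were Gjb2 and Gjb6. The stress keratins summed to 931, 1317, 5615 and 71642 counts on days 0, 3, 6 and 9, with all 3 listed and Krt16 at 0 on days 0 and 3. On day 3 they did not follow one course, since LOC683313 was called higher than on day 0 and Krt17 lower, and Gjb6 had 176 counts against 209 on day 0. Their part in the connexin result was not tested. Markers of basal keratinocytes, of which Krt14 and Krt15 were the 2 listed of 5, summed to 748, 787, 794 and 731. Endothelial markers summed to 310, 371, 496 and 317 counts over 6 of 6 genes, with Kdr at 0 on day 3.

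Both beta connexins were read mostly from 1 tag each, shown here because the day 9 result rests on them:
Gjb2 site 1: CATGcttgtcactgatataat
Gjb2 site 6: CATGagcccagtcctgaggaa
Gjb6 site 1: CATGgtcattggacaacatac
The site 1 tag of Gjb2 had 336, 613, 939 and 2778 copies on days 0, 3, 6 and 9. Its site 6 tag had 28, 10, 35 and 87, and was 3.22-fold [2.11 to 5.19] higher on day 9 than on day 0 against 8.67-fold [7.75 to 9.75] at site 1. The 2 tags were therefore both higher on day 9, by different folds, and on day 3 they moved in opposite directions. The Gjb6 tag had 197, 171, 245 and 458 copies.

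Gjb2 and Gjb6 are neighbours on rat chromosome 15, with 0 genes between them in the RefSeq annotation of GRCr8, and both lie on the minus strand. Since they were both higher on day 9, their promoter windows were compared, each 250 bases before to 50 after the annotated start. The Gjb2 window is chr15:35381904-35382203 and the Gjb6 window, the 5′-most of 2, is chr15:35410089-35410388. Capitals mark the longest run of letters they have in common and the letters TTAAAA:
Gjb2: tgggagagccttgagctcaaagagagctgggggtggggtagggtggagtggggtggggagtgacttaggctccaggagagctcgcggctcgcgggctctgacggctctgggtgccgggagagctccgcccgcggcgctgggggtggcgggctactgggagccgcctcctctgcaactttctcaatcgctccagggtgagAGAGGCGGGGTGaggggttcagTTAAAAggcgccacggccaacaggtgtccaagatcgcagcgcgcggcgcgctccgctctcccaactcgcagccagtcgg
Gjb6: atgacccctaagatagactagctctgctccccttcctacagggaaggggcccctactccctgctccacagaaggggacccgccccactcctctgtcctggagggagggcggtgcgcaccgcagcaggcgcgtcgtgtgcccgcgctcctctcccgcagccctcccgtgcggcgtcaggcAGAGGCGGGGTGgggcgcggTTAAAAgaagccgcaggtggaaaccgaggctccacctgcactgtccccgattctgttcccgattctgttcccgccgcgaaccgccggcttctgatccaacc
The run of 12 bases, AGAGGCGGGGTG, begins 51 bases before the start of Gjb2 and 71 before that of Gjb6, and TTAAAA begins 29 and 51 bases before. On either strand the run is found in 8 of 33469 rat windows, or 0.0239%, and together with TTAAAA in 2, which are these. TTAAAA alone is in 7044 windows, the GC box GGGCGG in 33.1% of windows, and the AP-1 motif TGANTCA, searched on both strands and absent from both connexin windows, in 7.33%. The run was sought after the sequences were read and is a description of the letters. It was defined by these 2 windows, so its presence in both was fixed in advance. How long a run other pairs of windows share was not tested, so the counts above cannot show that the match is unusual. The other Gjb6 window has no TTAAAA.

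Cadherins and catenins summed to 945, 862, 951 and 870 counts over 12 genes. Cdh3, which encodes P-cadherin of basal and follicular keratinocytes, had 80, 19, 33 and 88 counts on days 0, 3, 6 and 9. It was 4.15-fold [2.54 to 7.39] lower on day 3 and 2.33-fold [1.55 to 3.65] lower on day 6 than on day 0, and on day 9 it was 2.69-fold [1.80 to 4.19] above day 6. Days 0 and 9 were alike in count. Every one of these counts came from the tag CATGaaggctagactgtgagc. Krt14, a basal keratin, was lower on day 3 as well, by 2.06-fold [1.68 to 2.53], at 295, 144, 319 and 353 counts. Krt15, the other listed basal marker, went the other way on day 3, at 1.41-fold [1.25 to 1.6] above day 0 with 453, 643, 475 and 378 counts, and was not called. The part of basal cell content in the Cdh3 result was not tested.

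Cdh11, a cadherin of mesenchymal cells, had 29, 60, 32 and 23 counts and was 2.04-fold [1.3 to 3.33] higher on day 3 than on day 0. With a prior count of 5 its log2 ratio was 0.93, so that the call did not hold. Fibroblast markers, 6 of 6 listed, summed to 16901, 63671, 47956 and 45406 counts and were also highest on day 3. Their part in the Cdh11 value was not tested. Cdh13, a cadherin held to the membrane by a lipid anchor, had 221, 232, 344 and 187 counts. The catenins, which bind the tails of cadherins, were not called. Ctnna1, the α-catenin that reaches actin, had 393, 323, 325 and 377 counts, Ctnnb1 had 112, 153, 126 and 110, and Ctnnd1 had 97, 62, 71 and 64. Cdh1, which encodes E-cadherin, had 10, 3, 9 and 8 counts and could not be compared at this depth.

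**Figure D4:**
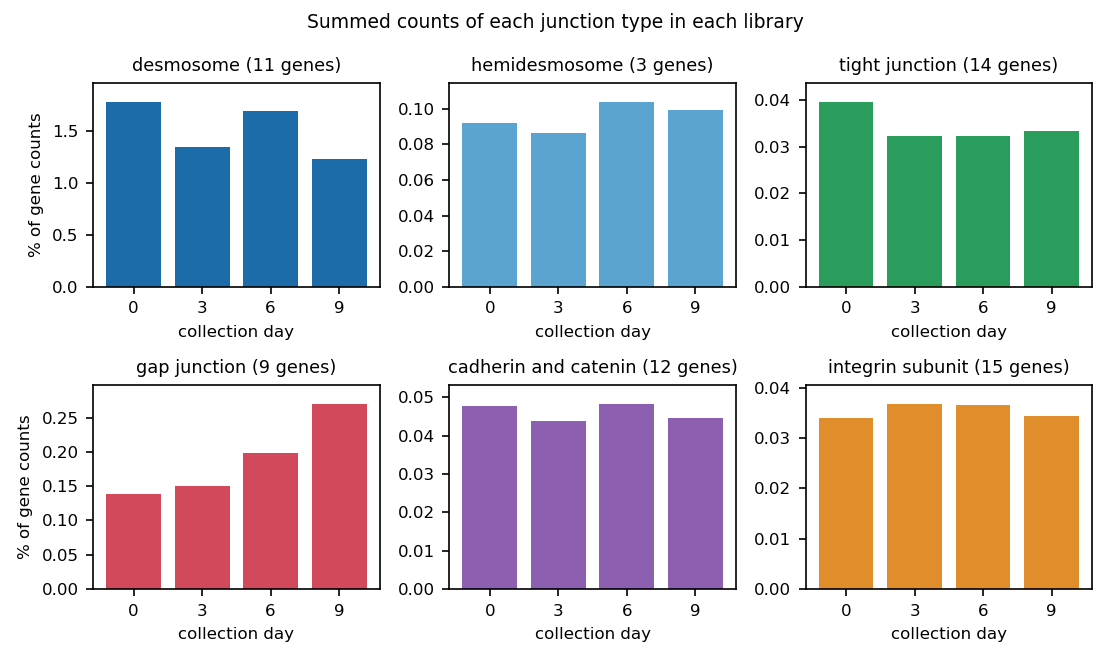
Summed counts of each junction type as a percentage of gene counts (vertical axes from 0, a scale for each type) on days 0, 3, 6 and 9, 1 bar for each library. The gap junction sum is highest on day 9 (5280 counts) and lowest on day 0 (2728 counts), while the tight junction sum stays between 635 and 787 counts.

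Integrin subunits other than α6 and β4 summed to 675, 725, 720 and 672 counts over 15 genes, a nearly level total. Within it the 2 most counted beta subunits took different courses. Itgb5, which pairs with the αv subunit as a vitronectin receptor, had 229, 167, 194 and 108 counts, and was 2.02-fold [1.60 to 2.56] lower on day 9 than on day 0. This call lies at the rule's limit and did not hold with a prior count of 5, with the deposited CPM plus 1 or for the leading tag alone, where the log2 ratios were -0.98, -1.0 and -0.93. Itgb1, the common partner of the collagen, laminin and fibronectin receptors, had 200, 276, 269 and 289 counts and was not called. Counts of Itgb5 per Itgb1 count were 0.605, 0.721 and 0.374 on days 3, 6 and 9 and 1.15 on day 0.

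Of the integrins of immune cells, Itgae, the alpha subunit that anchors lymphocytes to E-cadherin in epithelia, had 112, 120, 126 and 96 counts. Itgb7, its beta partner, had 34, 12, 8 and 7, and Itgal, an alpha subunit of leukocytes, had 0, 20, 8 and 19. Its site 1 tag had 0, 4, 5 and 19 copies and its site 2 tag 0, 16, 3 and 0. Of other leukocyte subunits, Itgb2 had 2, 5, 0 and 0 counts and Itgam had 0, 0, 2 and 0. Itgb6, an epithelial beta subunit that appears at wound edges, had 5, 9, 11 and 29 counts and was 5.63-fold [2.33 to 20.1] higher on day 9 than on day 0, though under 50 counts. Itgb7, Itgal, Itgb2, Itgam and Itgb6 were named after their values were seen. Leukocyte markers, 5 of 6 listed, summed to 535, 725, 574 and 669 counts, with Cd3e at 0 on day 6, and macrophage markers, 6 of 6 listed, to 634, 1381, 1088 and 945. Itga5, which makes the fibronectin receptor with β1, had 64, 67, 69 and 84 counts.

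Of the 8 genes matched by name alone, 5 had 50 counts, and 2 of these were called, both higher. Over all genes with 50 counts, 38.5% were called in at least 1 comparison. The shares called higher than day 0 were 7.48% on day 6 and 10.7% on day 9. Itgb1bp1, whose product binds the cytoplasmic tail of integrin β1, had 116, 221, 254 and 241 counts and was 2.25-fold [1.80 to 2.83] higher on day 6 and 2.18-fold [1.74 to 2.75] higher on day 9 than on day 0. Cldnd1, which encodes a claudin-domain membrane protein, had 40, 65, 70 and 93 counts and was 2.42-fold [1.67 to 3.63] higher on day 9 than on day 0. Ctnnbip1, an inhibitor of the binding of β-catenin to TCF factors, had 1221, 764, 1008 and 1228 counts and was not called. Its tags differed. The site 9 tag had 657, 468, 748 and 802 copies and the site 1 tag 70, 21, 9 and 34, so that on day 6 against day 0 site 9 was 1.17-fold [1.05 to 1.3] higher and site 1 was 7.21-fold [3.76 to 17.2] lower. After the CATG the site 1 tag has 14 G or C, in the group whose median log2 ratio was -0.22 on day 6, and the site 9 tag has 10. The part of base composition in this difference was not tested.
Ctnnbip1 site 9: CATGctgaggaagatggggtc
Ctnnbip1 site 1: CATGcgtgtgcaggcccggcg
Ctnnal1, an α-catenin relative, had 214, 266, 203 and 186 counts, and Itgb3bp, a centromere protein despite its symbol, had 50, 40, 60 and 43.

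**Figure D5:**
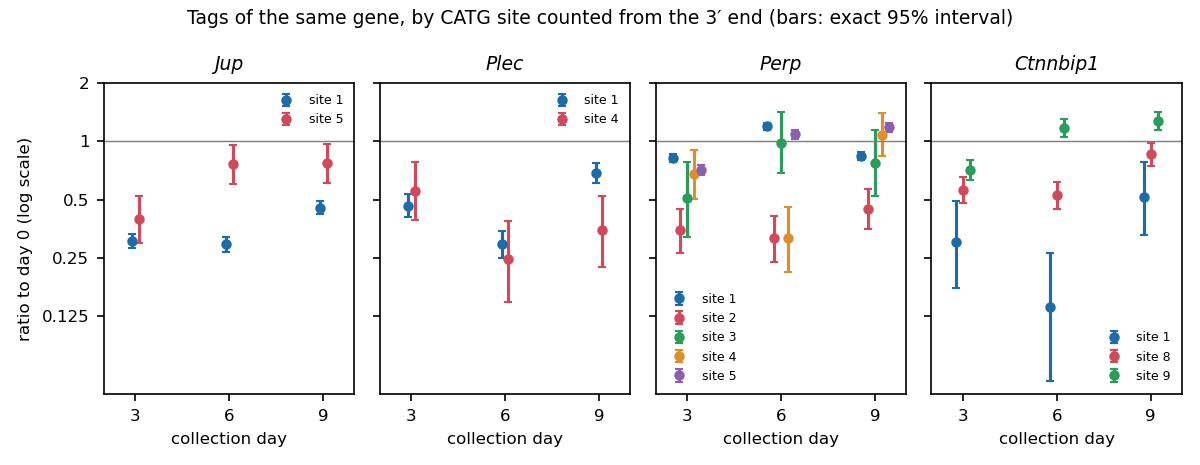
Ratio to day 0 (log axis, grey line at 1) of single tags of Jup, Plec, Perp and Ctnnbip1 on days 3, 6 and 9, 1 colour for each CATG site counted from the 3′ end, with exact 95% intervals for counting error. In Jup the site 1 tag is at 0.294 and the site 5 tag at 0.762 on day 6, and in Ctnnbip1 site 1 is at 0.139 and site 9 at 1.17.

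Across the 34 genes with 50 counts, the leading tag came from site 1 in 26 and held at least 80% of the gene's copies in 27. All 34 leading tags were assigned to a single gene. The 7 others split their counts over several sites, and a site-specific change in those can differ from that of the gene, as in Perp and Ctnnbip1. Sites also differed in genes whose leading tag held at least 80%, such as Jup (87.7%), Gjb2 (96.1%), Dsp (95.2%), Gja1 (89.4%) and Pkp1 (96.1%).

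Genes that work beside these were counted by the same rule. Over all genes with 50 counts, the shares called higher than day 0 were 8.54, 7.48 and 10.7% on days 3, 6 and 9, and the shares called lower were 7.88, 13.1 and 10.4%. Each list below except the pannexins has 4 to 9 such genes, so 1 or 2 calls are too few to set apart from these shares. Focal adhesion genes, which link integrin tails to actin, were listed for 14 of 16 and had 9 with 50 counts. On day 3 and on day 6, 2 of the 9 were higher than on day 0, Fermt2 and Ilk, and on day 9 none of the 9 was called. Ilk, the integrin-linked pseudokinase, had 128, 273, 273 and 145 counts, which was 2.12-fold [1.71 to 2.64] above day 0 on day 3 and 2.19-fold [1.77 to 2.73] on day 6. Fermt2, a kindlin that activates integrins, had 51, 122, 107 and 89 counts and was 2.37-fold [1.70 to 3.37] and 2.15-fold [1.53 to 3.08] above day 0 on the same days. Zyx, a protein of mature focal adhesions, had 261, 172, 139 and 340 counts and was 2.49-fold [2.04 to 3.06] higher on day 9 than on day 6.

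Integrin ligands were listed for 10 of 12. Higher than on day 0 were 2 of 4 genes on day 3, 2 of 5 on day 6 and 2 of 5 on day 9, and none was lower. Postn, which encodes periostin, had 42, 156, 90 and 93 counts and was 3.66-fold [2.61 to 5.33] above day 0 on day 3. Fbn1, the microfibril protein fibrillin, had 30, 63, 157 and 52 counts, 5.32-fold [3.63 to 8.25] above day 0 on day 6 and 2.94-fold [2.15 to 4.13] lower on day 9 than on day 6.

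Junction scaffolds were listed for 14 of 25 symbols, which include older and newer names of the same genes. On day 3, 2 of 7 were higher than on day 0. On day 6, 1 of 6 was higher and 1 lower, and on day 9, 2 of 6 were higher and 1 lower. Prkci, a polarity kinase of the tight junction, had 106, 153, 169 and 209 counts and was 2.06-fold [1.63 to 2.64] higher on day 9 than on day 0. Of corneodesmosome genes, which control shedding of the cornified layer, 7 of 11 were listed and 6 had 50 counts. Higher than on day 0 were 1, 1 and 2 of the 6 on days 3, 6 and 9. Klk7, a protease that cuts corneodesmosomes, had 542, 817, 806 and 1140 counts and was 2.21-fold [1.99 to 2.45] higher on day 9 than on day 0. Klk13 had 53, 87, 126 and 97 counts and was 2.43-fold [1.76 to 3.44] higher on day 6. Klk11 had 97, 59, 50 and 119 and was 2.41-fold [1.73 to 3.45] higher on day 9 than on day 6. The 2 listed pannexins of 3 summed to 28, 14, 4 and 21 counts and could not be called.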

How the data were processed

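Footpad skin was sequenced as 21-base tags, with 1 library for each of 4 days and samples grouped by the day in their titles. Per the file headers, a deposited gene count is the whole-number sum of its tags' copies. What the authors headed TPM is CPM by its values: counts scaled to tags seen at least 2 times in the library, not by length. The submitters' processing notes name Rnor_6.0 as the genome build. Which aligner was used is not given in the sources used here.

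Tables were joined by gene identifier, and all 72 gene IDs were found with the same symbol in RefSeq GRCr8, from which promoter sequences were taken. Libraries held 3592019, 3360368, 3556566 and 3442555 tags on days 0, 3, 6 and 9. TMM factors from edgeR 4.0.16 over all 4 libraries scaled the counts. Ratios used a prior count of 0.5, exact 95% Clopper-Pearson intervals came from scipy 1.17.1, and 3 counts stood in for a 0. With 1 library a day, no test across samples was possible. The size rule of 2-fold, 50 counts and an interval that excludes 1 was applied to all genes. All 3 later days were compared with day 0, and days 6 and 9 also with the collection before them.

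Tested on simulated counts for day 3 against day 0, the rule called 0 of 50 genes changed 1.5-fold, 49 of 50 at 2.5-fold and 50 of 50 at 4-fold and 8-fold, and 7 of 18757 unchanged genes. These counts were drawn with counting error alone, without spread between animals, and the changed genes had an expected count of 100 or more. The unchanged genes included those under 50 counts, which cannot be called. The simulation therefore gives no error rate for differences between animals. Genes were named if called or among the 3 most counted of their junction type. Ppl, Pkp3, Cldn23, Ocln, Ctnnd1, Cdh1, Itga5 and Itgb3bp were named outside this rule. So were the genes marked above as named after their values were seen. From the lists of neighbouring genes, called members with 100 counts were named, at most 3 in a comparison. Members, lists and rules were chosen with earlier results of these data known. The marker lists of muscle, fibroblasts, endothelium, macrophages, leukocytes, keratinocyte layers, sweat gland, Schwann cells and adipocytes were summed by day and passed through the same size rule. Schwann cell markers, 5 of 5 listed, summed to 457, 809, 531 and 503 counts on days 0, 3, 6 and 9, and adipocyte markers, 3 of 4 listed, to 173, 973, 337 and 637. The 9 alternatives were other scalings (library totals, totals short of the 20 most abundant genes, size factors of DESeq2 1.42.0, deposited CPM plus 1), other count minimums (10, 200 or none), a prior count of 5, and the leading tag alone. Values of a few genes are not reported here.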

Additional observations from a re-analysis of the deposited data

How the results depend on the processing

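The count minimum set the number of junction and integrin genes called, and scaling moved it little. With a minimum of 10 counts, 10, 10 and 16 were called against day 0 on days 3, 6 and 9, 4 on day 6 against day 3 and 11 on day 9 against day 6. With no minimum, these 5 comparisons called 11, 13, 17, 7 and 13 of all 72. The shares over all genes were then 11.8, 14.4, 13.9, 8.71 and 11.1%. With a minimum of 200 counts, 2 of 19 were called on day 3 and 5 of 21 on day 9 against day 0. On day 9 against day 6, 3 of 19 were called. The shares over all genes at that minimum were 16.3, 21.1 and 13.8%. Fewer or more genes entered by construction. Under the other 6 alternatives every count stayed within 1.5 times that reported. No named gene that was called reversed direction. Of the values of named genes under the alternatives, 18 no longer passed the rule, 2 newly passed it and 1195 kept their side. Those lost at other settings than the minimum of 200 were Plec and Cdh11 on day 3, Itgb5 on day 9 and Gjb6 on day 9 against day 6. No paired analysis was possible because each day had 1 library. Genes under 50 counts were limited by depth.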

Other observations

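A pair of Gja1 tags differed by 1 base, A6G, counted from 1 at the 5′ end of the tag, with that base in capitals:
catgaAttgagtgagtgatat
catgaGttgagtgagtgatat
The tag with A had 30, 37 and 29 copies on days 3, 6 and 9 and 20 on day 0. The tag with G had 0 assigned copies on days 3, 6 and 9 and 40 on day 0. Tags that differ by 1 base from the leading Dsp tag held 1.90, 1.83, 1.84 and 1.37% of the Dsp counts on days 0, 3, 6 and 9.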
